A study of Mus musculus with 13 samples.

Results

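Parp9, Dtx3l, Parp14, Parp10, Parp11 and Parp12 were followed across 13 bulk RNA sequencing libraries of small-intestinal gamma delta intraepithelial lymphocytes, the T cells that lie between the epithelial cells of the gut lining. The 6 genes were chosen by name from the PARP and Deltex families of ADP-ribosylation genes. Each was found once among the 21084 genes of the deposited count table, and each was among the 15835 genes that passed the filter on low counts.

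ADP-ribosylation attaches ADP-ribose, taken from NAD, to proteins or nucleic acids. Parp10, Parp11, Parp12 and Parp14 encode enzymes that attach single ADP-ribose units, whereas Parp9 encodes a protein with ADP-ribose-binding macrodomains that works as a partner of Dtx3l, a ubiquitin ligase of the Deltex family. Type I interferon signals through a receptor made of Ifnar1 and Ifnar2 to ISGF3, a transcription factor complex that includes Stat2 and Irf9 and binds interferon-stimulated response elements (ISREs) near its target genes, and several PARP genes are known targets with antiviral roles.

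All mice were labelled wild type, and no age was given. Mice received 200 µg of Armenian hamster IgG or of UC7-13D5, an antibody to the gamma delta receptor of these T cells, into the peritoneum. The treatment protocol puts these injections at 48 and 24 hours before cell isolation, whereas the design text has "48 or 24". They were then given 1 µg of murine interferon alpha (IFNa) or PBS (phosphate-buffered saline) into a vein 5 hours before isolation. The groups were IgG with PBS (IgG-PBS, 3 libraries), IgG with IFNa (IgG-IFNa, 4), UC7-13D5 with PBS (UC7-PBS, 3) and UC7-13D5 with IFNa (UC7-IFNa, 3). Titles call the libraries biological replicates, and how many mice went into each was not stated, so p-values measure the spread between libraries. The labels do not describe the sorting gate.

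Library totals ran from 19867201 to 26895876 estimated counts. UC7-IFNa library 2 had the lowest total, 1.14% of its counts on Rn18s against 0.0866% to 0.333% in the other 12 libraries, and a correlation of log2 levels with its group mates of 0.940 and 0.943 against 0.973 to 0.984 for other pairs within groups. Sex-linked transcripts also split the libraries: Xist was at 204 to 345 CPM (counts per 1000000) in IgG-PBS and in IgG-IFNa libraries 1 and 2, at 68.3 and 23.4 in IgG-IFNa libraries 3 and 4, which also held Y-linked transcripts at 210 and 320, and at no more than 1.08 in the UC7 groups. Antibody and sex-linked transcripts therefore cannot be told apart, and in the IgG arm the Y-linked transcripts came in with IFNa. The 8 markers of gamma delta intraepithelial lymphocytes, among them Trdc, Trgc1, Cd3e and Gzma, were above 0 in each group and together reached 40124 to 70034 CPM. Epithelial markers, 10 of 10 in the table and none at 0 in any group, summed to 153 to 330 CPM in IgG-PBS, 374 to 614 in IgG-IFNa, 576 to 1063 in UC7-PBS and 328 to 645 in UC7-IFNa. Alpha beta T cell markers (5 of 5) summed to 1388 to 2682, myeloid and dendritic markers (7 of 7, with Flt3 at 0 in all 3 IgG-PBS libraries) to 110 to 210, and B and plasma cell markers (3 of 5) to 61.2 to 166 CPM over the 13 libraries. Single genes made up most of the last 2 sums: Itgax, at 87.3 to 183 CPM, and Cd79b, at 52.4 to 116. Csf1r reached no more than 6.42 CPM, Adgre1 1.26, Lyz2 11.8, Cd68 15.2 and Cd79a 1.28. UC7-IFNa library 2 held the highest sums of the gamma delta (70034), alpha beta (2682, next 2120) and B and plasma cell markers (166, next 112), with the highest Gzma (47294 CPM) and Trac (480) and the lowest Itgae (877). Gzma and Gzmb made up most of the gamma delta sum in every library, so that sum says little about receptor genes. Trdc ran from 159 to 211 CPM over the 13 libraries and Trac from 165 to 480. In UC7-IFNa library 2, Trgc1 (2419), Trgc2 (1191), Cd3e (1672) and Cd8a (3085) were also at their highest, but Trdc (205) and Gzmb (13290) were not. Cd79b (116) made up most of its B and plasma cell sum. Trbc2 (1390) and Cd8b1 (60.6) were also at their highest there, but Trbc1 (750) and Cd4 (2.21) were not. In bulk libraries such as these, fewer cells of a type and less RNA per cell cannot be told apart.

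Parp14, Dtx3l and Parp9 are neighbours on mouse chromosome 16 (build mm39). Parp9 (ENSMUSG00000022906) runs from 35758840 to 35792975 on the plus strand. Dtx3l (ENSMUSG00000049502) runs from 35746881 to 35759521 on the minus strand, so the 2 genes point away from each other and share 682 bases. Parp14 (ENSMUSG00000034422), at 35653244 to 35691914 on the minus strand, lies 54.966 kb from Dtx3l. The other members lie apart from these: Parp10 (ENSMUSG00000063268) on chromosome 15 at 76115374 to 76127641, Parp11 (ENSMUSG00000037997) on chromosome 6 at 127423803 to 127471224, and Parp12 (ENSMUSG00000038507) on chromosome 6 at 39063344 to 39095283. Parp10 overlaps Plec by 1401 bases on the same strand, and counts of Parp9, Dtx3l and Parp10 were not whole in 11, 11 and 9 of the 13 libraries, while those of Parp14, Parp11 and Parp12 were whole in each. Counting by strand, which could separate Parp9 from Dtx3l but not Parp10 from Plec, is not stated in the sources used here. Reads of the shared bases of either pair may thus have been split between the genes. Parp14 and Parp11 also overlap predicted genes, which held 154 and 24 counts in all libraries together.

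**Figure D1:**
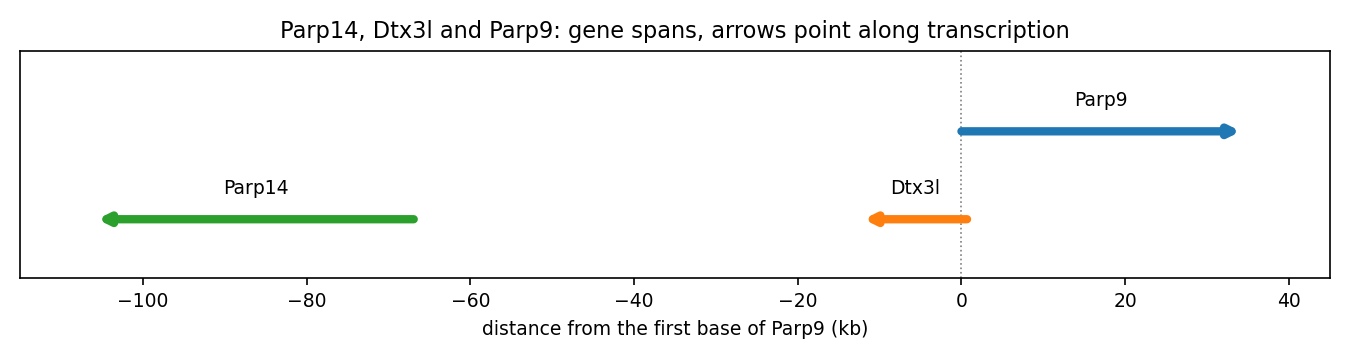
Spans of Parp14, Dtx3l and Parp9 along the chromosome, in kb from the first base of Parp9, with arrows along transcription. Parp9 and Dtx3l start head to head with 682 shared bases, and 54.966 kb separate Dtx3l from Parp14.

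Promoter windows from RefSeq (GRCm38.p6, not the build of the counts) matched 3 of the 6 members. They are shown because the libraries compare IFNa with PBS, and the ISRE core is the sequence that ISGF3 is known to bind. The 250 bases before the annotated start are printed, with an ISRE core in capitals.
Dtx3l, chr16:35939028-35939277, minus strand: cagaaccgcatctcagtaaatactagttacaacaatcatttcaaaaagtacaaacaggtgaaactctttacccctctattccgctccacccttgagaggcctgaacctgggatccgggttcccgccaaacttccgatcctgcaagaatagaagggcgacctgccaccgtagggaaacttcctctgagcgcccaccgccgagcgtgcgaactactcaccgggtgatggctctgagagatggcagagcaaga
Parp11, chr6:127446590-127446839, plus strand: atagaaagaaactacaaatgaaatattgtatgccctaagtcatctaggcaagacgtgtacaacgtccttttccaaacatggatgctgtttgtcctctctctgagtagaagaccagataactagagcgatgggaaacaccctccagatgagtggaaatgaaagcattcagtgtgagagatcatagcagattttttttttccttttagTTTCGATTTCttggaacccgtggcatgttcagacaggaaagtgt
Parp12, chr6:39118350-39118599, minus strand: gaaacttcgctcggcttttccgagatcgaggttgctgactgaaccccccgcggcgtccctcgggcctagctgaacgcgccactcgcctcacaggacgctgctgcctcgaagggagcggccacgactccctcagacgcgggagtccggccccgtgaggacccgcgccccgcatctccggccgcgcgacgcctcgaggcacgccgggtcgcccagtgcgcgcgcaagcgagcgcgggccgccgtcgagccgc

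The search covered the whole windows, which add 50 bases after the start to these 250. It looked for the core TTTCNNTTTC, or GAAANNGAAA on the other strand, which 1131 of 32851 promoter windows (3.44%) held. Of the members' 4 windows, the only match was TTTCGATTTC at bases -44 to -35 of the Parp11 window shown, while a second Parp11 window, the Dtx3l window and the Parp12 window held none. The gamma-activated site TTCNNNGAA, which reads the same on both strands and was present in 2726 windows (8.30%), occurred once, as TTCTTGGAA at bases -37 to -29 of the same Parp11 window, sharing 3 bases with the ISRE core. In GENCODE M21 (GRCm38), 4 of the 7 distinct transcript starts of Parp9 lie inside the Dtx3l window, between 35939011 and 35939061, so that window holds starts of both genes. These matches describe letters in fixed windows and not binding.

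Levels are given as CPM after TMM scaling, which corrects library totals for composition, and as CPM per kb of exon where genes are compared. In IgG-PBS, Parp10 had the highest level per length at 20.01 ± 3.22 CPM per kb (mean ± SD over 3 libraries). Dtx3l at 13.5 ± 1.55 and Parp9 at 12.0 ± 1.39 CPM per kb followed and overlapped each other, at 11.8 to 14.7 and 10.8 to 13.6. Parp14 stood at 6.55 ± 0.456, Parp12 at 3.22 ± 0.753 and Parp11 at 1.67 ± 0.298 CPM per kb, with no overlap between these neighbours. The order by group means was the same in UC7-PBS, at 16.3, 13.7, 10.8, 7.17, 3.56 and 1.99 CPM per kb. In both IFNa groups Parp9 stood before Dtx3l, at 16.3 against 14.1 CPM per kb in IgG-IFNa and 19.6 against 16.8 in UC7-IFNa, with overlapping libraries.

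After control IgG, Parp14 was the member whose IFNa libraries all lay above the PBS libraries, and none of the 6 members passed the test. Parp14, a macrodomain-containing ADP-ribosyltransferase, was at 58.4, 58.6 and 65.9 CPM in the 3 IgG-PBS libraries and at 86.2, 93.8, 78.4 and 83.6 in the 4 IgG-IFNa libraries. Each IgG-IFNa library was thus above each IgG-PBS library, and 7.09% of the genes tested showed the same. The log2 fold change of Parp14 was 0.49 (SE 0.18, 95% interval 0.096 to 0.88, unadjusted p = 0.0181, adjusted p = 0.323). Here and below, p-values come from edgeR's quasi-likelihood test with Benjamini-Hochberg adjustment over all genes tested and a threshold of 0.05. Fitted to the libraries of these 2 groups alone, Parp14 passed at an adjusted p of 0.0483, where 1.61% of genes passed as higher. It also passed when UC7-IFNa library 2 was left out of the shared spread, at 0.0308, where 1.84% did.

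Parp9 was at 66.0, 52.8 and 56.9 CPM in IgG-PBS and at 90.3, 104, 61.3 and 61.3 in IgG-IFNa. Its partner Dtx3l was at 83.9, 67.3 and 80.9 against 81.9, 112, 63.8 and 64.7 CPM. For both genes IgG-IFNa libraries 1 and 2 were the higher ones, and libraries 3 and 4 lay inside the PBS range for Parp9 and below it for Dtx3l. The log2 fold change was 0.44 for Parp9 (SE 0.29, adjusted p = 0.649) and 0.059 for Dtx3l (SE 0.21, adjusted p = 0.968).

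Parp10, an enzyme that modifies proteins with single ADP-ribose units, was at 86.6, 71.3 and 98.8 CPM in IgG-PBS and 118, 107, 81.7 and 81.8 in IgG-IFNa. Parp12, which carries RNA-binding zinc fingers beside its catalytic domain, was at 9.50, 13.9 and 15.3 against 16.9, 18.5, 7.23 and 10.8 CPM. Parp11 was at 13.9, 9.75 and 11.5 against 15.1, 16.3, 11.4 and 14.6 CPM. The groups overlapped for all 3 genes, and library 3 was the lowest of the IgG-IFNa group in each. Their log2 fold changes were 0.18 for Parp10 (SE 0.21), 0.052 for Parp12 (SE 0.31) and 0.29 for Parp11 (SE 0.25), with adjusted p of 0.853, 0.979 and 0.768.

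In this comparison 131 genes, 0.827% of those tested, passed the threshold, and 0 of the 6 members did. At an unadjusted p under 0.05 the members' count was 1 against 10.9% of all genes, and DESeq2 called 0 members where it called 2.72% of genes. The median log2 fold change was 0.24 over the members and -0.012 over all genes tested. With IgG-IFNa libraries 3 and 4 omitted, the log2 fold changes were 0.73 for Parp9, 0.33 for Dtx3l, 0.56 for Parp14, 0.40 for Parp10, 0.42 for Parp11 and 0.46 for Parp12, again with 0 members past the threshold. Without IgG-IFNa library 2 alone they were 0.28, -0.14, 0.44, 0.13, 0.22 and -0.15 in that order. The summed epithelial markers were also higher in all IgG-IFNa than in all IgG-PBS libraries, with 2 of the 10 past the threshold, and their part in the members' values was not tested.

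**Figure D2:**
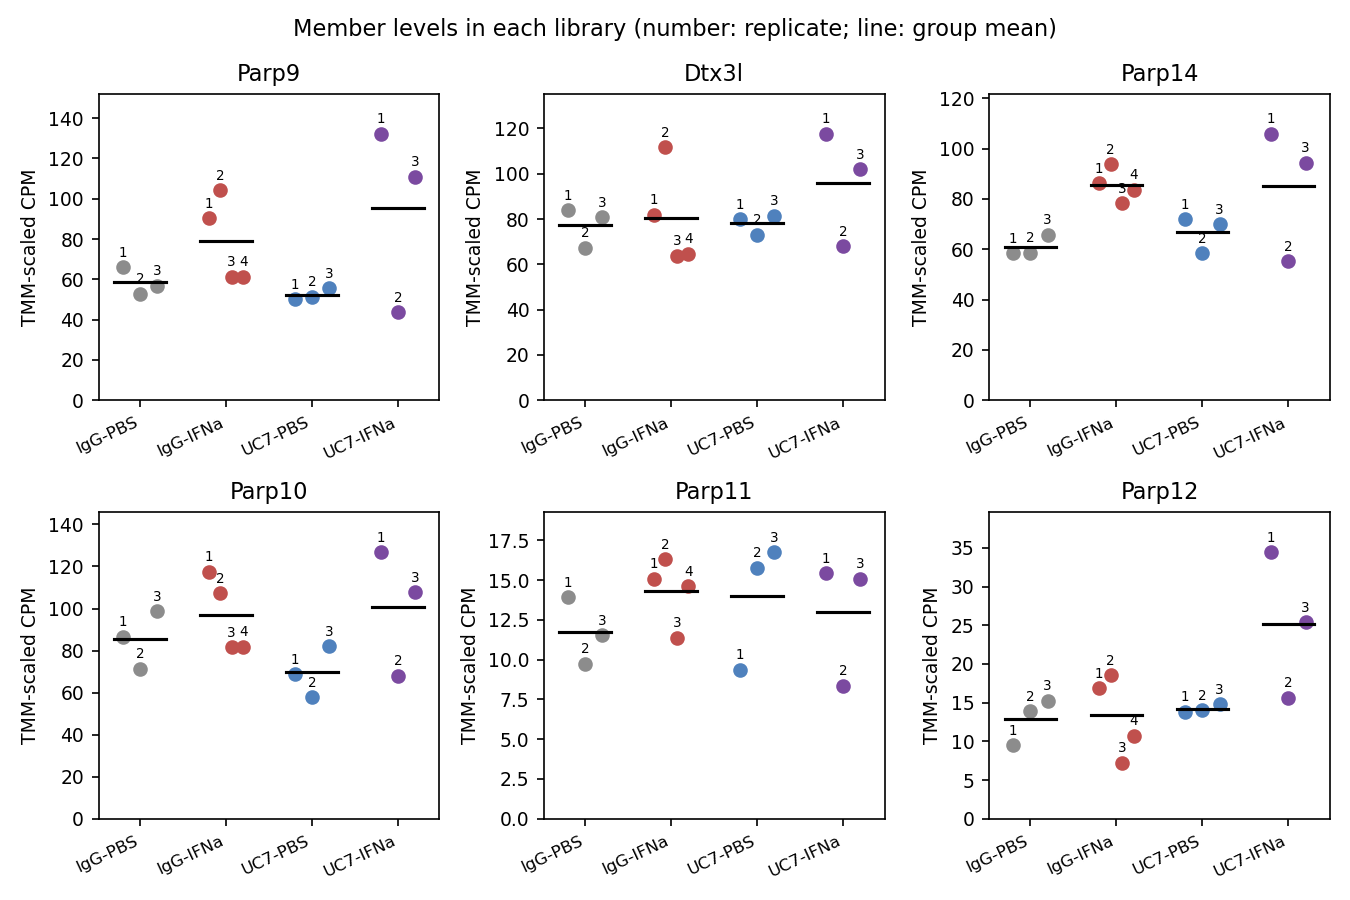
CPM of each member in the 13 libraries, with a panel per gene, replicate numbers beside the points and a line at each group mean, on axes that start at 0. Parp14 separates IgG-PBS (up to 65.9) from IgG-IFNa (from 78.4), and UC7-IFNa library 2 is the lowest of its group in each panel.

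After UC7-13D5, IFNa libraries 1 and 3 held the highest levels of Parp9, Dtx3l, Parp14, Parp10 and Parp12 in the arm, and library 2 did not share them. Parp9 was at 50.1, 51.3 and 55.7 CPM in UC7-PBS and at 132, 43.6 and 111 in UC7-IFNa libraries 1, 2 and 3. Library 2 was below all 3 PBS libraries and the other 2 above them, so the groups overlapped. The log2 fold change was 0.87 (SE 0.31, 95% interval 0.22 to 1.52, unadjusted p = 0.0121, adjusted p = 0.4997). Without UC7-IFNa library 2, Parp9 rose by 1.21 on the log2 scale (SE 0.20, adjusted p = 0.00408), a fit in which 0.586% of genes passed as higher and Parp9 was the only one of the 6 members to do so. Without UC7-IFNa library 1 it was at 0.56 (unadjusted p = 0.0877, adjusted p = 0.491).

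Dtx3l was at 80.0, 73.1 and 81.6 CPM in UC7-PBS and 118, 68.1 and 102 in UC7-IFNa. Parp14 was at 72.0, 58.4 and 69.9 against 106, 55.2 and 94.3 CPM. Both genes show the same layout as Parp9, with libraries 1 and 3 above the PBS range and library 2 below it. The log2 fold change was 0.30 for Dtx3l (SE 0.22, adjusted p = 0.797) and 0.35 for Parp14 (SE 0.20, adjusted p = 0.716), and without library 2 it was 0.48 (adjusted p = 0.341) and 0.58 (adjusted p = 0.0669).

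Parp12 was at 13.8, 14.1 and 14.8 CPM in UC7-PBS and at 34.5, 15.6 and 25.4 in UC7-IFNa. It was the single member without overlap between these groups, by a margin of library 2 that was smaller than the PBS range, and 5.89% of genes tested were higher without overlap. Its log2 fold change was 0.82 (SE 0.33, 95% interval 0.13 to 1.52, unadjusted p = 0.0231, adjusted p = 0.572), and 1.06 (adjusted p = 0.156) without library 2. Parp10 was at 68.9, 58.0 and 82.2 CPM against 127, 68.0 and 108, with library 2 inside the PBS range. For Parp10 the log2 fold change was 0.53 (SE 0.23, unadjusted p = 0.0317, adjusted p = 0.596), and 0.74 (adjusted p = 0.0990) without library 2. Parp11, an enzyme linked to the nuclear envelope, was at 9.37, 15.8 and 16.8 CPM against 15.4, 8.36 and 15.1, so the groups overlapped, with a log2 fold change of -0.10 (SE 0.27, adjusted p = 0.957).

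Of all genes, 57 (0.36%) passed the threshold in the UC7 arm, and 0 of the 6 members. The members' count at an unadjusted p under 0.05 was 3 (Parp9, Parp10 and Parp12) against 7.59% of all genes, and DESeq2 called 0 members and 0.909% of genes. Their median log2 fold change was 0.44 against 0.022 over all genes. Without UC7-IFNa library 2, 5 of the 6 members, all but Parp11, were higher in IFNa without overlap, against 17.9% of genes with only 2 IFNa libraries left. Without UC7-IFNa library 1 instead, the log2 fold changes were 0.12 for Dtx3l, 0.16 for Parp14, 0.33 for Parp10, -0.25 for Parp11 and 0.53 for Parp12.

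**Figure D3:**
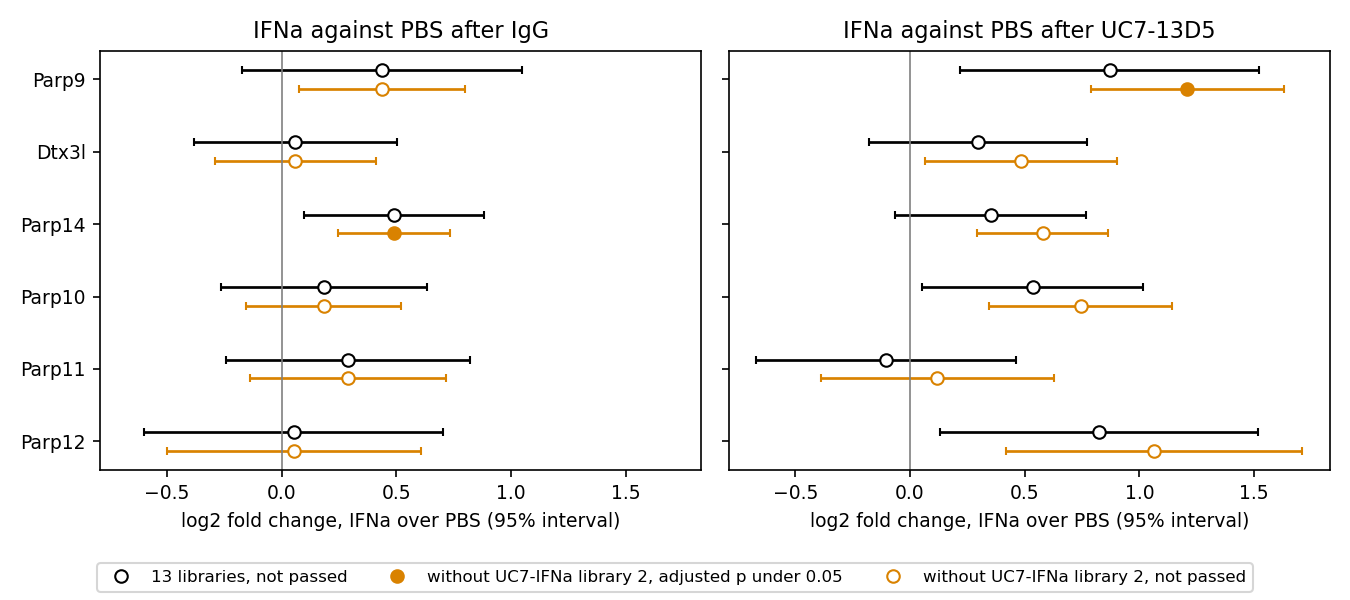
Log2 fold change of each member for IFNa over PBS, after IgG on the left and after UC7-13D5 on the right, with 95% intervals, from all 13 libraries (black) and without UC7-IFNa library 2 (orange). Filled points passed an adjusted p of 0.05: Parp14 after IgG (0.0308) and Parp9 after UC7-13D5 (0.00408), both only without that library.

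Library by library, the members were set beside the receptor-to-ISGF3 list, in which Irf9, Irf7 and Usp18, themselves known IFNa targets, passed the IFNa test in both arms. Each IFNa library was set against the mean of the PBS libraries of its antibody. All 6 members were above that mean in IgG-IFNa libraries 1 and 2 and in UC7-IFNa libraries 1 and 3, with median log2 ratios of 0.42, 0.53, 0.77 and 0.56. In IgG-IFNa libraries 3 and 4, 2 and 3 members were above it (medians -0.056 and 0.00052), and in UC7-IFNa library 2 only Parp12 was (median -0.23). The same share over all genes tested was not counted for single libraries. These counts therefore describe the members and do not show a trait particular to them. Irf9, the ISGF3 subunit that contacts DNA, was above the PBS mean in all 7 IFNa libraries: it was at 65.9 to 80.7 CPM in IgG-PBS, 147 to 186 in IgG-IFNa, 57.0 to 73.1 in UC7-PBS and 186 to 192 in UC7-IFNa. Irf7 and Usp18 were likewise above it in all 7, also in the 3 libraries where no more than 3 of the 6 members were, but these 3 genes are the ones that passed on the same values. Of the 8 genes of that list that did not pass, 2 were above the PBS mean in IgG-IFNa library 3 and 2 in UC7-IFNa library 2, against 5 to 7 in the other 5 libraries. In UC7-IFNa library 2, log2 ratios were -0.057 for Stat2, -0.38 for Ifnar1, -0.47 for the kinase Jak1 and -0.34 for the kinase Tyk2. Irf1 was at -0.16 and Socs3 at -0.20 there, and the 2 genes above the PBS mean were Ifnar2 (0.16) and Socs1 (0.59). The 3 libraries low in members are the pair of IFNa libraries with Xist and Y-linked transcripts together, and UC7-IFNa library 2. The latter had the low total, the high Rn18s and the high sums of alpha beta and B cell markers. The part of these features in the members' levels was not tested.

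**Figure D4:**
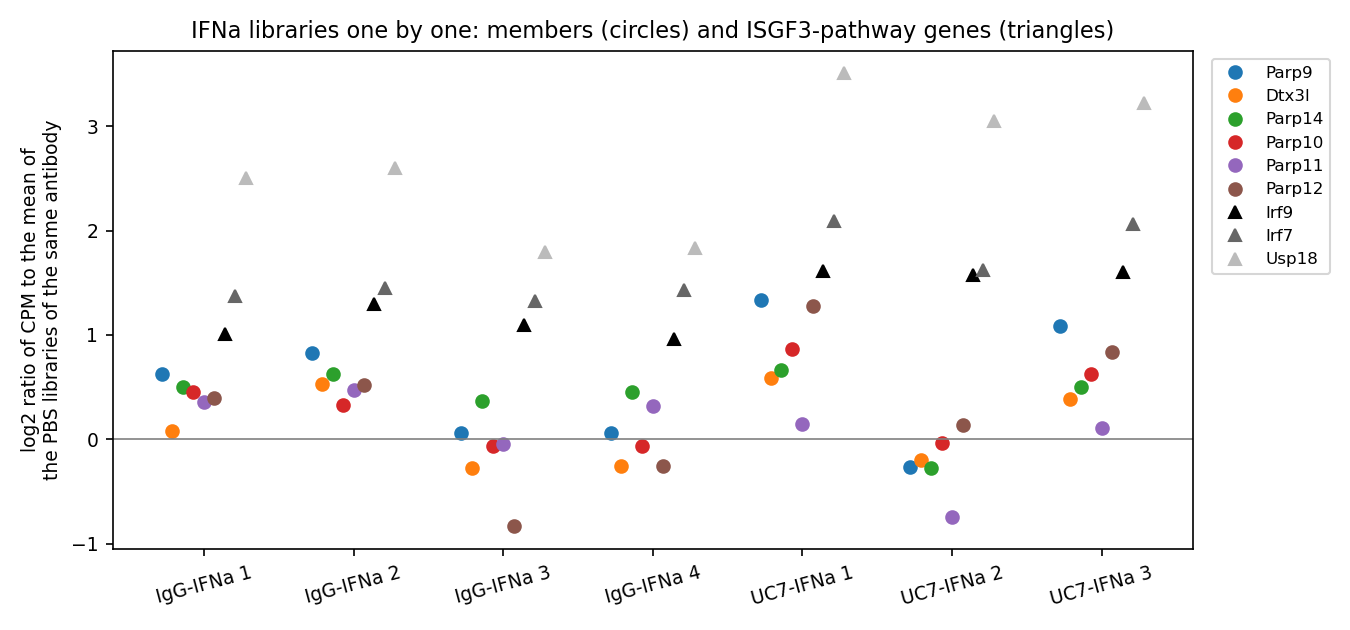
Log2 ratio of CPM to the PBS mean of the same antibody for the 6 members (circles) and for Irf9, Irf7 and Usp18 (triangles) in each of the 7 IFNa libraries. The triangles stay above 0 throughout, while 4 of the 6 circles fall below 0 in IgG-IFNa library 3, 3 in IgG-IFNa library 4 and 5 in UC7-IFNa library 2. The share of all genes tested below 0 was not counted.

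Binding of the receptor by UC7-13D5 without IFNa left no member past the threshold. The levels given above put UC7-PBS against IgG-PBS at log2 fold changes of -0.16 for Parp9 (SE 0.30), 0.016 for Dtx3l, 0.13 for Parp14, -0.30 for Parp10 (SE 0.23), 0.25 for Parp11 and 0.14 for Parp12, each with an adjusted p of 1.00, and the groups overlapped for all 6. Only 1 gene (0.00632%) passed in this comparison, 0 members and 5% of genes had an unadjusted p under 0.05, and DESeq2 called 0 members and 0.436% of genes. The 95% intervals were -0.28 to 0.55 for Parp14 and -0.78 to 0.18 for Parp10. With the share of Y-linked transcripts as a covariate, Parp12 was at 1.20 (unadjusted p = 0.0270) and Dtx3l at 0.70 (unadjusted p = 0.0560), both with an adjusted p of 1.00. That share, of Y-linked in Y-linked plus Xist counts, was at most 0.000898 in IgG-PBS and at least 0.996 in the UC7 groups. Within groups it varied mainly in IgG-IFNa: 0.0104 and 0.00771 in libraries 1 and 2, 0.755 and 0.932 in libraries 3 and 4. The covariate's slope therefore rests mainly on the IgG-IFNa libraries, and this fit cannot separate antibody from sex-linked transcripts.

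Under IFNa, Parp12 gave the largest of the members' antibody differences, at 16.9, 18.5, 7.23 and 10.8 CPM after IgG and 34.5, 15.6 and 25.4 after UC7-13D5. UC7-IFNa library 2 fell between the IgG libraries and the other 2 stood above them. The log2 difference, UC7-13D5 over IgG, was 0.92 (SE 0.30, 95% interval 0.28 to 1.56, unadjusted p = 0.00809, adjusted p = 0.444). That of Parp9 was 0.27 (adjusted p = 0.818) and that of Dtx3l 0.25 (adjusted p = 0.784), while Parp14, Parp10 and Parp11 were at -0.0045, 0.055 and -0.14. Here 12 genes (0.0758%) passed and 0 members. At an unadjusted p under 0.05 there was 1 member, Parp12, against 7.19% of genes, and DESeq2 called 0 members and 0.773% of genes. Without UC7-IFNa library 2, Parp9, Parp14 and Parp12 were higher after UC7-13D5 without overlap, against 8.8% of genes, and none passed. With IgG-IFNa libraries 3 and 4 omitted, the Parp12 difference was 0.51 (adjusted p = 0.797). With the Y-linked covariate it was 1.59 (unadjusted p = 0.000682, adjusted p = 0.219), and that of Dtx3l was 0.68 (unadjusted p = 0.0155, adjusted p = 0.515). As with PBS, the slope of that covariate rests mainly on the IgG-IFNa libraries, so these values do not separate antibody from sex-linked transcripts.

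Whether the IFNa response itself differed between the antibodies was tested by the interaction, UC7 arm minus IgG arm. It was 0.77 for Parp12 (SE 0.45), 0.43 for Parp9 (SE 0.42), 0.35 for Parp10, 0.24 for Dtx3l, -0.14 for Parp14 and -0.39 for Parp11, each with an adjusted p of 1.00. The intervals ran from -0.18 to 1.72 for Parp12 and from -0.45 to 1.32 for Parp9. No gene passed (0%), 0 members and 3.17% of genes had an unadjusted p under 0.05, and DESeq2 called 0 members and 0.0316% of genes.

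Among the other genes of ADP-ribosylation, listed by role, few passed. Of 11 further PARP family genes, 1 fell and 0 rose after IgG and 0 passed after UC7-13D5. That gene was Parp16, an ADP-ribosyltransferase anchored in the endoplasmic reticulum, at 45.9, 45.2 and 41.9 CPM in IgG-PBS and 31.5, 30.5, 25.4 and 26.0 in IgG-IFNa. It fell by 0.64 on the log2 scale (SE 0.14, adjusted p = 0.0499), kept the call in 4 of 20 alternatives and lost it without any of 11 of the 13 libraries, and its UC7 arm value was -0.40 (adjusted p = 0.558). Zc3hav1, the catalytically inactive antiviral PARP known as ZAP, had log2 fold changes of 0.71 (adjusted p = 0.0537) and 0.49 (adjusted p = 0.467) after IgG and UC7-13D5. After IgG its groups did not overlap (292 to 344 CPM against 444 to 574), where 7.09% of genes tested were likewise higher without overlap. After UC7-13D5 they did overlap (361 to 428 CPM against 424 to 656).

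Enzymes and readers that remove or bind ADP-ribose (11 of 12 listed tested) gave 0 higher and 0 lower in both arms. Adprs, the hydrolase that takes ADP-ribose off serine, was at -0.50 (adjusted p = 0.198) after IgG and -0.23 (0.785) after UC7-13D5, Macrod1 at -0.79 (0.501) after IgG, and Macrod2, under 1 CPM in every library, at -1.29 (0.740) after UC7-13D5. The 4 other Deltex ubiquitin ligases gave 0 in each direction, with Dtx4 at 0.35 (0.289) after IgG and 0.39 (0.461) after UC7-13D5, Dtx3 at 0.11 (0.900) after IgG and Dtx2 at 0.35 (0.589) after UC7-13D5. Extracellular ADP-ribosyltransferases with P2rx7, the ion channel they act on in T cells (5 of 7 tested), also gave 0 in each direction. Art2b was at 0.41 (0.555) after IgG and 0.20 (0.895) after UC7-13D5, Art4 at -0.22 (0.838) after IgG and P2rx7 at -0.23 (0.768) after UC7-13D5. Values in brackets are adjusted p.

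The genes that make and use NAD, the donor of ADP-ribose, held 1 that rose and 1 that fell after IgG among 14 tested of 16 listed, and none that passed after UC7-13D5. Nmrk1, a kinase that feeds nicotinamide riboside into NAD synthesis, was at 115, 115 and 85.0 CPM in IgG-PBS and 182, 187, 291 and 348 in IgG-IFNa, with the highest levels in libraries 3 and 4. It rose by 1.26 on the log2 scale (SE 0.22, adjusted p = 0.0158) and kept the call in 13 of 20 alternatives. The call was lost without any 1 of the 3 IgG-PBS libraries, without IgG-IFNa library 3, without libraries 3 and 4 together, with the replicate block and with the Y-linked covariate. Nmnat3, an adenylyltransferase of NAD synthesis found in mitochondria, was at 15.4, 22.0 and 20.6 CPM against 9.46, 10.9, 10.03 and 11.6. It fell by 0.88 (SE 0.19, adjusted p = 0.0408), with the call kept in 7 of 20 alternatives and lost without any of 9 of the 13 libraries. After UC7-13D5, Nmrk1 was at 0.40 (adjusted p = 0.721), Nmnat3 at -0.74 (0.283) and Qprt at -0.72 (0.558), and the interaction of Nmrk1 was -0.86 (adjusted p = 1.00).

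The receptor-to-ISGF3 list had 3 of 11 genes that rose in each arm and 0 that fell. After IgG, Irf7 rose by 1.40, Irf9 by 1.10 and Usp18, which removes the ubiquitin-like modifier ISG15 and dampens the receptor, by 2.22 on the log2 scale (adjusted p from 0.000793 to 0.00172). In the UC7 arm the same 3 genes rose by 1.94, 1.60 and 3.26 (adjusted p from 1.66e-05 to 4.01e-05). Each of these calls held in all 20 alternatives. Median log2 fold changes after IgG and UC7-13D5 were 0.10 and 0.075 for the further PARP genes, -0.10 and -0.092 for ADP-ribose removal, 0.11 and 0.37 for the Deltex list, -0.13 and -0.20 for the extracellular enzymes, 0.051 and 0.059 for NAD and 0.22 and 0.19 for the receptor-to-ISGF3 list, beside -0.012 and 0.022 over all genes.

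In the antibody comparisons and the interaction, 0 genes of any of these lists passed. The smallest unadjusted p values without IFNa belonged to Irf1 (log2 difference -0.40, adjusted p = 0.750) and Adprs (-0.44, adjusted p = 0.786), and under IFNa to Usp18 (0.60, adjusted p = 0.659) and Irf7 (0.34, adjusted p = 0.683). In the interaction, 4 of the 11 receptor-to-ISGF3 genes had an unadjusted p under 0.05, all with positive values: Usp18 at 1.04, Irf9 at 0.50, Irf7 at 0.54 and Socs1 at 0.66, each with an adjusted p of 1.00, the last 2 named after their values were seen. The share over all genes was 3.17%. In the interaction 5 of the 10 epithelial markers also had an unadjusted p under 0.05, all with negative values. Their part in these differences was not tested. Usp18, Irf9 and Irf7 rose with IFNa in both arms, whereas Socs1 did not. Against the IgG-PBS mean, Usp18 had log2 ratios of 2.50 and 2.59 in IgG-IFNa libraries 1 and 2. In libraries 3 and 4, the pair with Xist and Y-linked transcripts together, they were 1.79 and 1.83. For Irf9 and Irf7 the ratios of these pairs overlapped. The part of sex-linked transcripts in the Usp18 interaction was not tested. The log2 fold change of Socs1 was -0.62 after IgG (adjusted p = 0.217) and 0.043 in the UC7 arm. Against the PBS mean of that arm, Socs1 had log2 ratios of -0.33 in UC7-IFNa libraries 1 and 3 and 0.59 in library 2. Its value in the UC7 arm, and so its interaction, therefore depended on library 2.

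**Figure D5:**
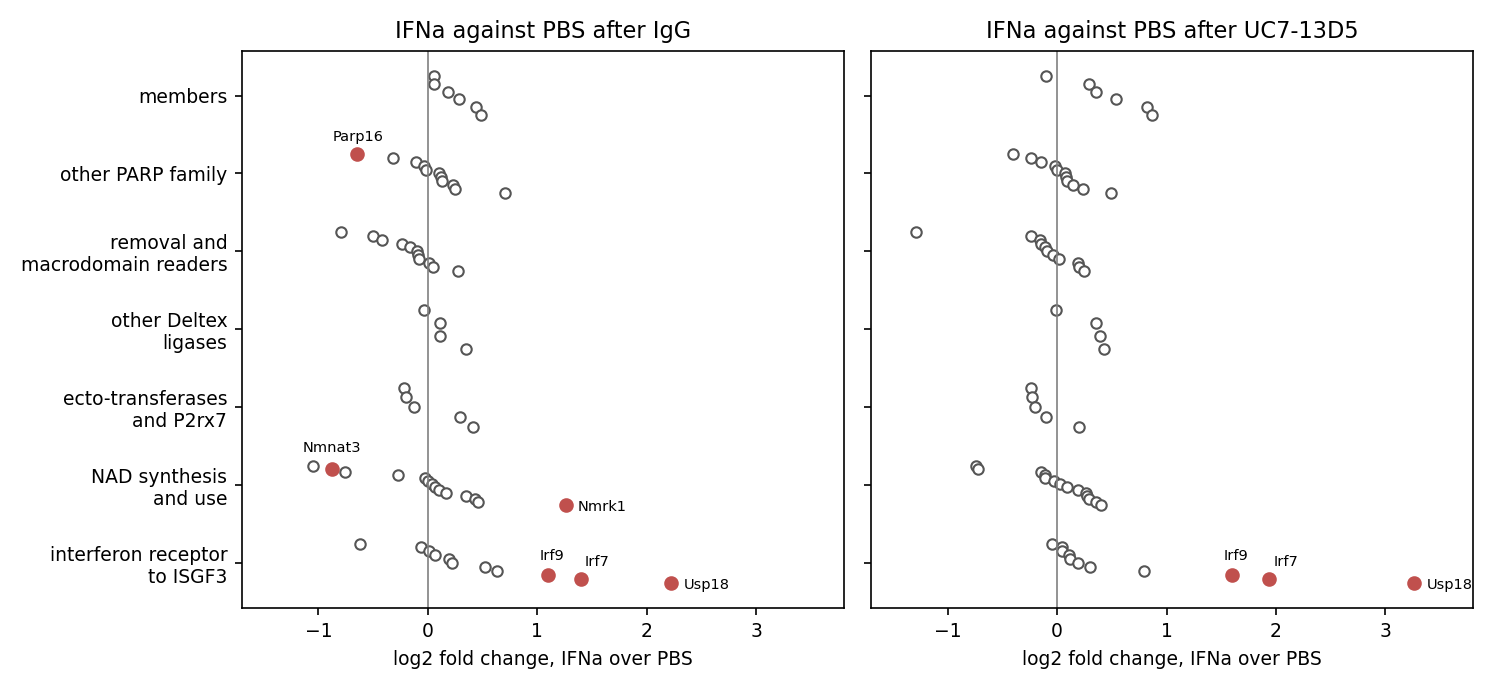
Log2 fold change for IFNa over PBS of the members and of each tested gene of the 6 lists, after IgG on the left and after UC7-13D5 on the right, with filled and named points for genes past the threshold. Only Usp18, Irf7 and Irf9 are filled in both panels, and Parp16, Nmnat3 and Nmrk1 are filled after IgG alone.

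The genes most like each member were ranked by Pearson's r of log2 CPM over the 13 libraries, among 8461 protein-coding genes whose log2 CPM averaged 3 or more. The libraries share treatment, depth and preparation, so these are descriptions. Closest to Parp9 were Slfn8 (r = 0.961), Ddx58 (0.957), which encodes the RNA sensor RIG-I, and Samd9l (0.939). Next to Parp14 stood Stat2 (0.929), the ISGF3 subunit, Khnyn (0.928) and Xdh (0.925). For Parp10 they were Mlkl (0.913), the effector of necroptosis, Unc13d (0.905) and Mvp (0.902). Dtx3l was closest to Ipo13 (0.903), Smarcc2 (0.894) and Ano6 (0.893), Parp11 to Zw10 (0.908), Adcy7 (0.905) and Galnt12 (0.904), and Parp12 to Etnk1 (0.918), Llgl1 (0.900) and Zfp784 (0.896). None of the 3 genes closest to Parp9 passed the threshold for IFNa in either arm, with log2 fold changes of 0.59 and 1.24 for Slfn8, 0.34 and 0.57 for Ddx58 and 0.81 and 0.81 for Samd9l after IgG and UC7-13D5.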

How the data were processed

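The authors deposited a table of estimated counts per gene (expected counts, not normalized between libraries, 37.3% of values not whole), with mm39 positions whose last column lies 1 base past the gene end. Per the submitters' processing notes, STAR 2.7.8a, Partek, DESeq2 and mm39 were used, without roles, and per the labels' protocols RNeasy and SMART-Seq HT kits made RNA and libraries. Their normalized table was not used. Groups came from the sample titles. Counts were rounded, filtered with filterByExpr (minimum count 10), scaled by TMM and fitted over all 13 libraries with edgeR 4.0.16 (robust quasi-likelihood, a coefficient per group, R 4.3.3), 5 contrasts, two-sided, Benjamini-Hochberg over all genes. A standard error is the log2 fold change divided by the square root of F. Exon lengths came from GENCODE M21 (GRCm38). The fit was run on simulated counts drawn with its own estimated spread. These held no outlying library and no split of sex-linked transcripts, so they could not show how the fit handles either.

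The members, lists and tests were chosen with earlier results of these data known. Genes named were the members, up to 4 genes per list past the threshold or else the 2 with the smallest p, of which the antibody contrasts name those under 0.05, and the 3 genes most correlated with each member. Samples sharing a replicate number did not deviate together (18 pairs, r from -0.21 to 0.13), so the numbers were not used to pair them. Alternatives were DESeq2 1.42.0, RLE scaling, no filter, 2 groups only, a replicate block, a Y-linked covariate, omission of IgG-IFNa libraries 3 and 4, and omission of each library; their use for the list genes was chosen after seeing the data. One gene of the interferon list is not reported here.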

Additional observations from a re-analysis of the deposited data

How the results depend on the processing

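No member passed the threshold under RLE scaling, no filter, DESeq2, the replicate block, the Y-linked covariate or omission of IgG-IFNa libraries 3 and 4. Members past it after IgG numbered 1 with only the 2 groups fitted, and 0 to 1 as single libraries were left out, in both IFNa comparisons. Genes past the threshold for IFNa after IgG (131) numbered 406 with DESeq2, 343 with only the 2 groups, 23 with the Y-linked covariate, 21 without IgG-IFNa libraries 3 and 4, and 24 to 430 without single libraries (24 without IgG-PBS library 1, 430 without UC7-IFNa library 2). After UC7-13D5 (57) they were 141, 22 with only the 2 groups, and 29 to 110 (110 without UC7-IFNa library 2). For UC7-13D5 against IgG with PBS (1) they were 69 with DESeq2, 0 without a filter, 19 with 2 groups, 5 without the pair and 0 to 4. With IFNa (12) they were 120, 0 with 2 groups, 5 with the covariate, 6 without the pair and 0 to 52, and for the interaction (0) 5 and 0 to 1. With the replicate block, the counts were 27 and 34 for IFNa after IgG and UC7-13D5 and 1 for the antibody with IFNa, no member's call changed, and Parp10 under IFNa turned to -0.063.

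Signs that turned belonged to log2 values near 0 or with wide errors. With the Y-linked covariate, UC7-13D5 against IgG gave 0.62 for Parp9 and 0.24 for Parp10 with PBS, 0.017 for Parp11 and 0.092 for Parp14 with IFNa, and -0.026 for the Dtx3l interaction. Without IgG-IFNa libraries 3 and 4 that interaction was -0.029, and the antibody difference with IFNa was -0.024 for Parp9, -0.014 for Dtx3l and -0.16 for Parp10. Leaving out single libraries, Dtx3l ran from -0.14 to 0.16 and Parp12 from -0.15 to 0.26 for IFNa after IgG, Parp11 from -0.33 to 0.12 for IFNa after UC7-13D5, and Parp14 from -0.33 to 0.089 in the interaction. For the antibody with IFNa, Parp9 ran from -0.039 to 0.61, Parp10 from -0.15 to 0.26, Parp11 from -0.29 to 0.078 and Parp14 from -0.20 to 0.22, and with PBS Dtx3l from -0.077 to 0.077 and Parp12 from -0.035 to 0.28. The cause was not tested. Estimated counts per library were 144 to 442 for Parp11 and 183 to 875 for Parp12, against 750 or more for the other members.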

Other observations

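The ratio of Parp9 to Dtx3l, which start head to head, was looked at after the values were seen. It was 0.787, 0.785 and 0.704 in IgG-PBS and 0.626, 0.702 and 0.683 in UC7-PBS. With IFNa it was 1.10, 0.932, 0.960 and 0.947 in IgG-IFNa and 1.12, 0.639 and 1.09 in UC7-IFNa. All IgG-IFNa libraries lay above all PBS libraries, and UC7-IFNa library 2 lay within the PBS range. The mean log2 ratio was higher with IFNa by 0.38 in the IgG arm and by 0.46 in the UC7 arm. No test is given, since the ratio was chosen on these values, and reads of the 682 shared bases can count for either gene.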
